A study of Mus musculus with 8 samples.

Results

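The genes described here encode the proteasome, the barrel-shaped protease that degrades ubiquitin-tagged proteins, together with its caps, assembly chaperones and an inhibitor. They were chosen by symbol, as the letters Psm, a letter from a to g and a digit, which gave 49 of the 23278 entries in each of 4 deposited tables. Of these, 48 were tested by the authors in every table. Psma8, the testis form of an alpha subunit, was not tested and was listed at no more than 0.283 FPKM (fragments per kilobase of transcript, scaled to the mapped fragments of a library) in any group. Psmc3ip also meets the symbol rule but is a cofactor of meiotic recombination and no proteasome subunit. It was never called, so leaving it out (47 genes) changes no count of called genes. It is included in the other counts, among them the 46 lower values at DP1 (45 without it), the 20 higher values at DP2 (19) and the 30 lower genes of the WT stages at an unadjusted p below 0.05 (29).

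Thymocytes were sorted by flow cytometry from C57BL/6 mice as GFP+ CD4+CD8+ double-positive cells at 2 stages, DP1 (CD5lo TCRblo) and the later DP2 (CD5hi TCRbint). WT animals were Hdac3+/+, and Hdac3KO animals were Hdac3F/F, a floxed allele of the histone deacetylase HDAC3 cut by a Cre under the Lck promoter, which is active in developing T cells. The design text writes LCK-Cre+ after both genotypes and does not say whether WT animals carried it, and it gives no age, no source of the GFP and no count of animals behind the pooled RNA. Each of the 4 groups (WT DP1, Hdac3KO DP1, WT DP2, Hdac3KO DP2) had 2 rRNA-depleted total RNA libraries, and each deposited table compares a pair of groups with 1 FPKM value per gene and group. The spread between libraries is therefore seen here only through the authors' p and q.

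The 20S core is a stack of outer alpha rings, which gate entry, and inner beta rings, whose subunits beta1, beta2 and beta5 (Psmb6, Psmb7 and Psmb5) cut peptides. Cells of the immune system can build the core with the interferon-inducible subunits Psmb9, Psmb10 and Psmb8 in place of these, giving the immunoproteasome, and cortical epithelial cells of the thymus use Psmb11 (beta5t) in the thymoproteasome, which makes peptides for positive selection of CD8 T cells. The 19S cap recognises and unfolds substrates, the 11S cap (Psme1 and Psme2, or Psme3) and PA200 (Psme4) open the core without ubiquitin, and transcription factors such as NFE2L1 are known to raise the genes of the constitutive particle together.

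The upstream sequences of 4 genes are shown because their genes each fell in Hdac3KO DP1 cells and belong to different parts of the particle: Psmb5 and Psmb6, which encode catalytic subunits, Psma5 of the alpha ring and Psmd2 of the 19S cap. They are RefSeq promoter windows on GRCm38.p6, up to 250 bases before the gene's start and ended before any annotated exon, written 5′ to 3′ on the gene's strand. Capitals mark matches to the antioxidant response core TGACNNNGC, the site type of NFE2L1 and NFE2L2, in Psmb5 and Psmb6, and to the ETS core CCGGAA, on either strand, in Psma5 and Psmd2.
Psmb5 (chr14:54618023-54618245, minus strand): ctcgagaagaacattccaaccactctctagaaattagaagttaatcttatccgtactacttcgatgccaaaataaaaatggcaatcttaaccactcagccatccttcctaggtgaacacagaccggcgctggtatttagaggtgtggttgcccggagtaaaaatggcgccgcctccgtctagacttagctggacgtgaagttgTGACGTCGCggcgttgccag
Psmb6 (chr11:70525107-70525356, plus strand): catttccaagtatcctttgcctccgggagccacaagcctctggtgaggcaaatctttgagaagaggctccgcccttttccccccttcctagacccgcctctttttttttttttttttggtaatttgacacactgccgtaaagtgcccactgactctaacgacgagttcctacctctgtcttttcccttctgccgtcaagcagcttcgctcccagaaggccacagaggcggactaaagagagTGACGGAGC
Psma5 (chr3:108256676-108256877, plus strand): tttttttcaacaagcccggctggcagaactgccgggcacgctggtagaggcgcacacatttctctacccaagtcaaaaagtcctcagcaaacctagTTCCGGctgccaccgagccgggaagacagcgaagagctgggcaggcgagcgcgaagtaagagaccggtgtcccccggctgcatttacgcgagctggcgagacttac
Psmd2 (chr16:20651402-20651651, plus strand): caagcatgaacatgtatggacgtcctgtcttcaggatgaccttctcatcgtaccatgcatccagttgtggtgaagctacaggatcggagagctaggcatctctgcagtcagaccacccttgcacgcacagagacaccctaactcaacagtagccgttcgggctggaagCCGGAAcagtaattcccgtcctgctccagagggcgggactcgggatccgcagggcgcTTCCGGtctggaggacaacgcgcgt

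Over the whole 250-base windows, 44 promoter entries matched 41 of the genes. The ETS core CCGGAA was found in 19 of the 44 windows (43.2%) and in 12.03% of all 32851 promoter windows, both strands searched. The antioxidant response core TGACNNNGC stood in 5 windows (11.4%), those of Psmb5, Psmb6, Psmc6, Psmd9 and Psmd12, against 10.2% of all windows. CCAAT, the box bound by NF-Y, was in 34.1% against 33.8%. The windows differ in base composition as well, with a median of 14.5 CG pairs for the proteasome genes and 6 for all windows, and a median GC content of 57.6% and 52.4%. Each match is a description of letters in a window, and no binding was measured.

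The libraries carried their labels as far as the tables can show. Hdac3 was listed in the authors' deposited tables at 38.1 FPKM in WT and 11.7 in Hdac3KO DP1 cells (q = 0.000879) and at 29.7 and 15.4 in DP2 cells (q = 0.0131). The part of the gene that was deleted is not stated. Xist stood at 0.0945 FPKM in WT cells and 208 in Hdac3KO DP1 cells and at 0.243 and 139 in DP2 cells, and the Y-linked Kdm5d at 20.006 and 0.264, and at 34.6 and 0.322. Sex therefore differed with genotype, and the effects of the 2 cannot be told apart. Defining genes of double-positive thymocytes were present in every group, with the 9 listed markers summing to 3185 to 7358 FPKM. At DP2 all 9 had the higher value in Hdac3KO (sums 3310 and 7358) and 4 were called, beside 6.44% of all tested genes. Between the WT stages 6 were called lower (16.8% of all tested genes) and between the Hdac3KO stages 1 (4.65%). Between genotypes at DP1 0 were called. Markers of B cells (5 genes, summed 5.74 to 9.77 FPKM), of dendritic cells and macrophages (12 genes, 9.14 to 24.6) and of erythroid cells (3 genes, 1.28 to 2.73) had low sums. Some of them were called in the comparisons used here: in the authors' deposited tables Itgam rose in Hdac3KO from 2.40 to 9.58 FPKM at DP1 (q = 0.000879) and from 1.60 to 15.7 at DP2 (q = 0.00134), Alas2 from 0.676 to 2.51 at DP1 (q = 0.0117), and Cd74 from 1.59 to 6.35 between the WT stages (q = 0.024). At DP2, of the 3 tested markers of dendritic cells and macrophages, 1 was called higher in Hdac3KO (Itgam) and 1 lower. The part of all these markers in the results on proteasome genes was not tested.

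Proteasome genes were lower in Hdac3KO than in WT cells at the DP1 stage. In the authors' deposited table, 28 of the 48 tested genes fell and 1, Psmb11, rose at the deposited q of 0.05 or less that is used as the call throughout. Among all 10511 genes tested in that comparison 12.9% were called lower and 10.7% higher. The median log2 ratio of Hdac3KO over WT was -0.71 over the proteasome genes and -0.08 over all genes with at least 1 FPKM, so that the median proteasome gene stood at 61.3% of its WT level. Summed over the genes, 4083 FPKM in WT DP1 cells stood against 2599 in Hdac3KO DP1 cells, and 46 of the 48 had a lower value in Hdac3KO. Over all genes the sum went from 610614 to 510926 FPKM, and 5865 of the 10511 tested genes had a lower value.

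**Figure D1:**
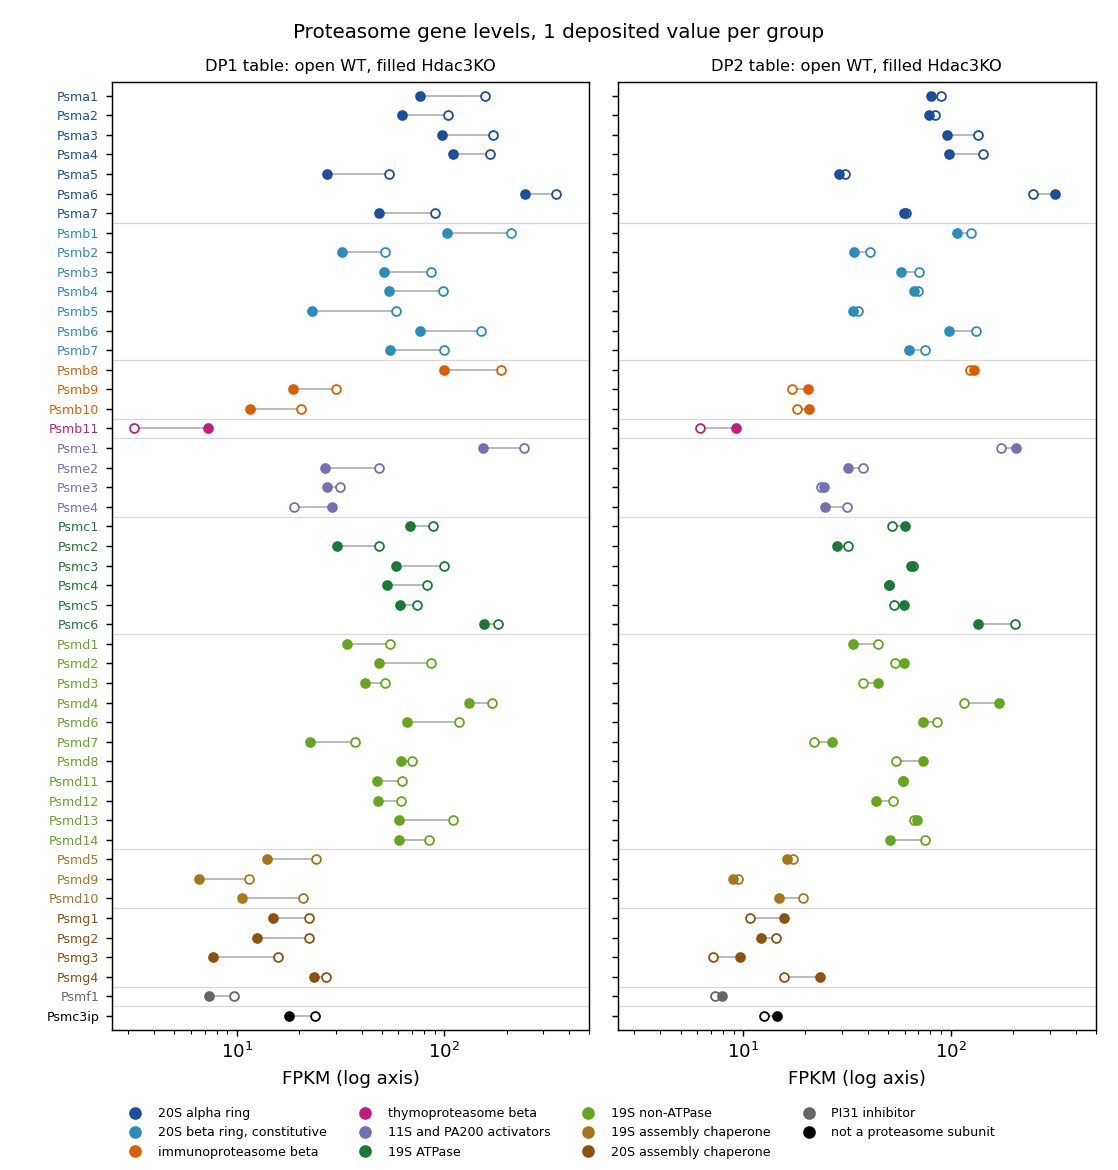
FPKM on a log axis of the 48 tested genes in the DP1 genotype table (left) and the DP2 genotype table (right), 1 deposited value per group and no error bar, with WT open, Hdac3KO filled and colours for the part of the particle. At DP1 the filled points lie to the left of the open ones for 46 genes and to the right for Psmb11 and Psme4, whereas at DP2 20 genes have the higher value in Hdac3KO and 28 the lower. Of all tested genes, 5865 of 10511 had the lower value in Hdac3KO at DP1 and 4502 of 10674 at DP2.

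Across all genes the ratio at DP1 followed the length of the transcript, and in bulk RNA fewer cells of a type and less RNA per cell cannot be told apart. The proteasome transcripts are short, with a median of 1490.5 bases (GENCODE M21, longest protein-coding transcript) against 2975 bases for all tested genes. In the DP1 genotype comparison the median log2 ratio of all genes rose from -0.68 for transcripts under 1000 bases to 0.34 for those of 5000 bases or more, among genes at 10 FPKM or more in each group. The deposited q called 27.2% of tested genes lower under 1000 bases, 28.1% from 1000 to below 1500 and 20.4% from 1500 to below 2000. In the same classes 1.89%, 3.42% and 4.55% were called higher. Once a lowess trend on length was taken out, the median over the proteasome genes was -0.27 (0.01 over all genes). In that setting 3 of 48 genes were called lower, Psmb1, Psmd2 and Psmd5, and 1 higher, Psmb11. Of all genes 5.75% were called lower and 8.58% higher, so the lower calls were near the share of all genes. With ratios centred on the median gene, 16 were lower and 2 higher (Psmb11 and Psme4), beside 9.01% and 13.7% of all genes. The counts that follow are of the deposited q, with no trend taken out.

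**Figure D2:**
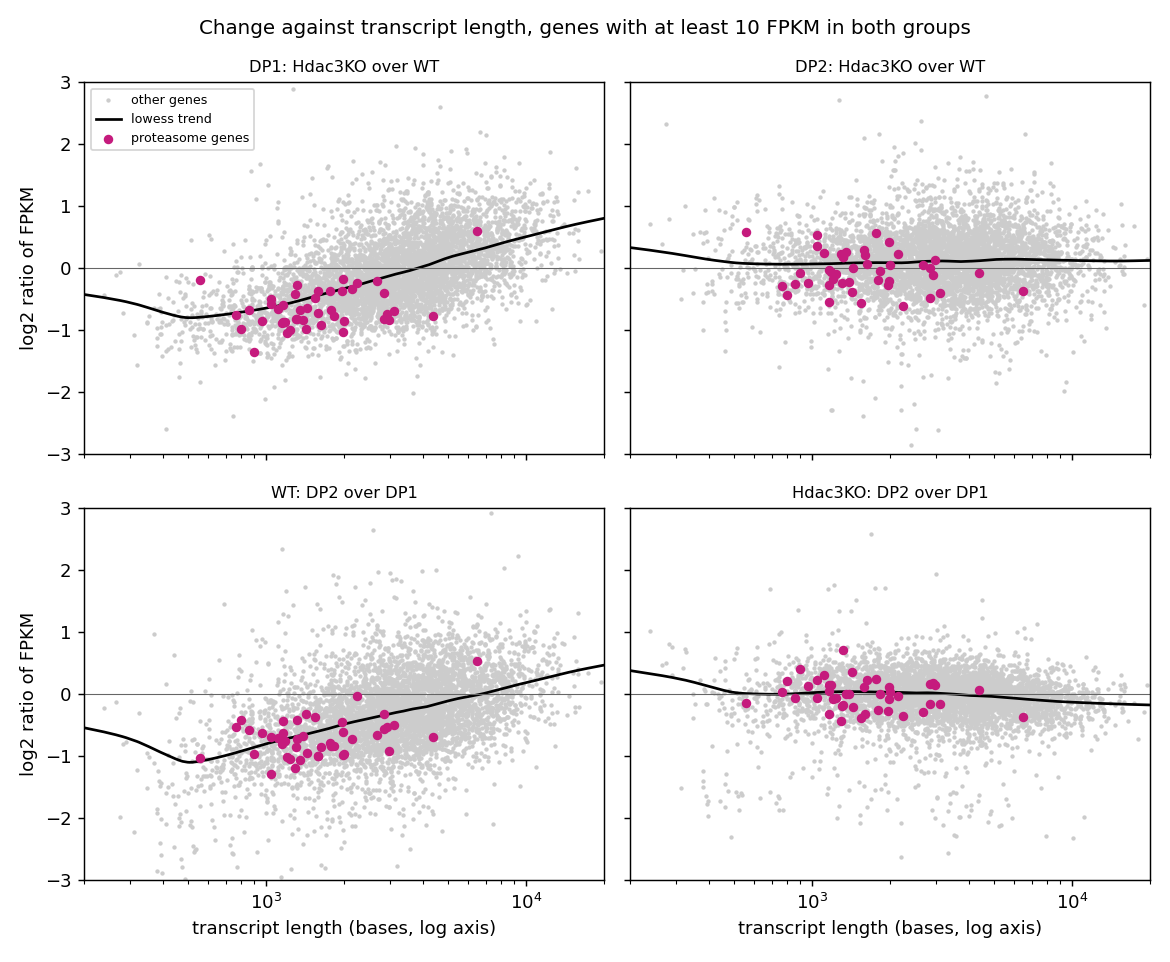
The log2 ratio of FPKM against transcript length (bases, log axis) in each of the 4 comparisons, for genes at 10 FPKM or more in each group, with proteasome genes in magenta, other genes in grey and the lowess trend as a line. In the DP1 genotype and WT stage comparisons the trend climbs with length over most of the range, and in the other comparisons the trend is nearly flat.

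In the alpha ring, 5 of 7 tested subunits fell in Hdac3KO DP1 cells. Psma1 went from 157 to 76.5 FPKM (log2 ratio -1.04 ± 0.27, where ± is a standard error worked back from the deposited p; q = 0.00154 by the authors' deposited table). Psma5 stood at 54.2 FPKM in WT cells and 27.2 in Hdac3KO, a log2 ratio of -0.99 ± 0.27 (q = 0.00303 by the authors' deposited table). Psma7 fell from 89.9 to 48.5 FPKM with a deposited q of 0.00882 in the authors' deposited table. Psma6, the alpha subunit with the highest level of all these genes, had 344 and 244 FPKM and was not called (q = 0.363 by the authors' deposited table).

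The constitutive beta ring had 6 of 7 subunits lower, with Psmb2 the exception (51.6 and 32.2 FPKM, q = 0.0681 by the authors' deposited table). Psmb5, the chymotrypsin-like subunit, had the largest fall of any proteasome gene: 58.6 FPKM in WT and 23.1 in Hdac3KO, 39.4% of WT (log2 ratio -1.34 ± 0.33, q = 0.000879 by the authors' deposited table). Psmb6, the caspase-like subunit, fell from 150 to 76.2 FPKM (q = 0.00207) and Psmb7, the trypsin-like subunit, from 99.4 to 54.5 (q = 0.00862), both in the authors' deposited table. Psmb1, a structural beta subunit, fell from 211 to 103 FPKM (log2 ratio -1.03 ± 0.25, q = 0.000879 by the authors' deposited table). All 3 constitutive catalytic subunits thus passed the test. Pseudogenes of Psmb5, Psmb6 and Psmb7, and the near copy Psme2b of Psme2, are annotated but have no row of their own, so reads of these 4 genes may have been shared with copies.

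Of the immunoproteasome subunits, 2 of 3 fell. Psmb8 (beta5i) fell from 188 to 99.7 FPKM (log2 ratio -0.92 ± 0.26, q = 0.00393 by the authors' deposited table). Psmb10 (beta2i) stood at 20.4 FPKM in WT cells and 11.5 in Hdac3KO (q = 0.0252 by the authors' deposited table). Psmb9 (beta1i) had 30.1 and 18.7 FPKM and was not called (q = 0.077 by the authors' deposited table), and it overlaps Tap1 on the opposite strand, with the use of strand in counting not given in the sources used here. Compared per transcript length, Psmb8 had the highest level of the immune subunits in every group.

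Psmb11 moved the other way. The thymoproteasome subunit stood at 3.21 FPKM in WT cells and 7.30 in Hdac3KO DP1 cells, 2.28-fold higher (log2 ratio 1.19 ± 0.31, q = 0.00154 by the authors' deposited table). It had the lowest value of the 48 genes in WT DP1 cells. The call held with the length trend removed (1.13, q = 0.0049). Its transcript is long for the family, 4247 bases in a single exon. On mm10 (GENCODE M21) Psmb11 lies at chr14:54621433-54629556 on the plus strand, near Psmb5 at chr14:54614119-54618022 on the minus strand. Of the thymic epithelium, where Psmb11 is best known, 14 marker genes summed to 17.4 FPKM in WT and 18.4 in Hdac3KO DP1 cells, and 11 were below 1 FPKM in both groups. The defining genes Foxn1 (0.278 and 0.257 FPKM), Prss16 (0.0483 and 0.107) and Krt5 (0 and 0.107) were at or near 0. The rest of the sum came from Cldn4, Ccl25 and Epcam, at 10.1, 3.05 and 2.58 FPKM in WT and 11.5, 4.07 and 1.14 in Hdac3KO.

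Activators were divided. Psme1 and Psme2, the subunits of the interferon-inducible 11S cap, fell from 241 to 153 FPKM (q = 0.0388) and from 48.3 to 26.7 (q = 0.0212) in the authors' deposited table. Psme3, the nuclear 11S subunit, had 31.6 and 27.3 FPKM and Psme4 18.9 and 28.8, and neither was called (q = 0.581 and 0.0646 by the authors' deposited table). Psme4 and Psmb11 were the 2 genes of the 48 with a higher value in Hdac3KO, and Psme4 has the longest transcript of the family, at 6491 bases.

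In the 19S cap, 3 of 6 ATPases and 5 of 11 other subunits were lower, against 13 of 18 tested core subunits. The called ATPases, which unfold substrates, were Psmc2, Psmc3 and Psmc4, at 62.9%, 58.9% and 64.4% of WT. Psmd2, the scaffold that holds ubiquitin shuttles, went from 86.6 to 48.3 FPKM (log2 ratio -0.84 ± 0.25) and Psmd13 from 110.0 to 60.7, each with q = 0.00627 in the authors' deposited table. The ubiquitin receptor Psmd4 (170 and 132 FPKM, q = 0.293) and the deubiquitinase Psmd14 (84.1 and 60.2 FPKM, q = 0.153) were not called in the authors' deposited table. Over the 17 subunits of the cap the median log2 ratio was -0.48, and over the 18 of the core -0.84. The difference between core and cap was not tested, and with the length trend removed the medians were -0.15 and -0.28.

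Of the assembly chaperones, 5 of 7 were lower. All 3 tested chaperones of the 19S base were called: Psmd5, Psmd9 and Psmd10 stood at 58.5%, 57.4% and 50.5% of WT. Psmd10, called gankyrin, fell from 20.9 to 10.6 FPKM (q = 0.0168 by the authors' deposited table), and it is X-linked, in a comparison where sex differs with genotype. Of the 4 chaperones of the 20S core, Psmg2 and Psmg3 fell, and Psmg3 went from 15.8 to 7.72 FPKM (log2 ratio -1.03 ± 0.36, q = 0.0232 by the authors' deposited table). The inhibitor Psmf1 was not called, at 9.68 and 7.39 FPKM (q = 0.306 by the authors' deposited table).

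At the DP2 stage no proteasome gene was called between the genotypes. The authors' deposited Cuffdiff table gave 0 of 48 at q of 0.05, where 6.44% of 10674 tested genes were called higher and 4.32% lower. At an unadjusted deposited p below 0.05, 2 genes were higher in Hdac3KO (Psmb11 and Psmd4) and 3 lower (Psma4, Psmc6 and Psmd14). Of all 10674 tested genes, 1502 were higher and 1000 lower at that Cuffdiff p. A normal p of the deposited statistic called 2 proteasome genes lower (Psma3 and Psmc6). The median log2 ratio was -0.05 over the proteasome genes and 0.08 over all genes. The lowest q, 0.0925 in the authors' deposited table, was that of the ATPase Psmc6 (205 and 135 FPKM). Psmb5 was at 35.9 and 33.8 FPKM, Psmb8 at 124 and 129, and Psmb11 at 6.20 and 9.20 (q = 0.208 by the authors' deposited table). Psmb6 had 133 and 97.9 FPKM, Psmb7 75.4 and 62.7, Psmb9 17.2 and 20.7, and Psmb10 18.3 and 20.8. Of the activators, Psme1 had 175 and 208 FPKM, Psme2 37.8 and 32.2, Psme3 23.8 and 24.7, and Psme4 31.8 and 24.8. Beside Psmb11, the 14 thymic epithelium markers summed to 11.8 FPKM in WT and 28.2 in Hdac3KO DP2 cells, and 11 were below 1 FPKM in both groups. Only 3 of the 14 were tested: 2 had a higher value in Hdac3KO and 1 a lower, with a median log2 ratio of 1.21. Both higher markers had an unadjusted Cuffdiff p below 0.05, and 1 of them was called. Cldn4 was higher in Hdac3KO (2.58 and 19.2 FPKM), and Ccl25, the highest of the markers in WT, had 5.57 and 4.24. Of those below 1 FPKM, Prss16 had 0.412 and 0.0998, Krt18 0.497 and 0.213, and Foxn1 0.0398 and 0.145. Their part in the values of Psmb11 was not tested. Across the 48 genes the log2 ratios of the 2 genotype comparisons, which share no library, had Pearson's r of 0.29 and Spearman's rho of 0.29, given as a description, since genes are not independent replicates and share the libraries of each comparison.

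Among WT cells, proteasome genes were lower at DP2 than at DP1. Of the 48 genes, 21 fell and 0 rose in the authors' deposited table, where 16.8% of 10851 tested genes were called lower and 5.56% higher. Among tested genes with transcripts under 1000, 1000 to below 1500 and 1500 to below 2000 bases, 29.0%, 27.9% and 21.4% were called lower. In the same classes 1.72%, 2.35% and 4.44% were called higher. Cuffdiff's unadjusted p was below 0.05 for 30 lower genes and 1 higher gene, beside 2791 lower and 981 higher of all 10851 tested genes. The normal p of its statistic called 10 lower. The median log2 ratio of DP2 over DP1 was -0.70, against -0.24 over all genes, and the summed level went from 4628 to 2920 FPKM. Over all genes the sum went from 693403 to 488387 FPKM. This comparison uses the same WT DP1 libraries as the DP1 genotype comparison, so a high value in WT DP1 enters both. With the length trend removed 0 genes were called in either direction (4.53% of all genes lower, 8.27% higher), and with ratios centred on the median gene 0 were lower and 2 higher, Psmb11 and Psme4 (6.52% and 11% of all genes).

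**Figure D3:**
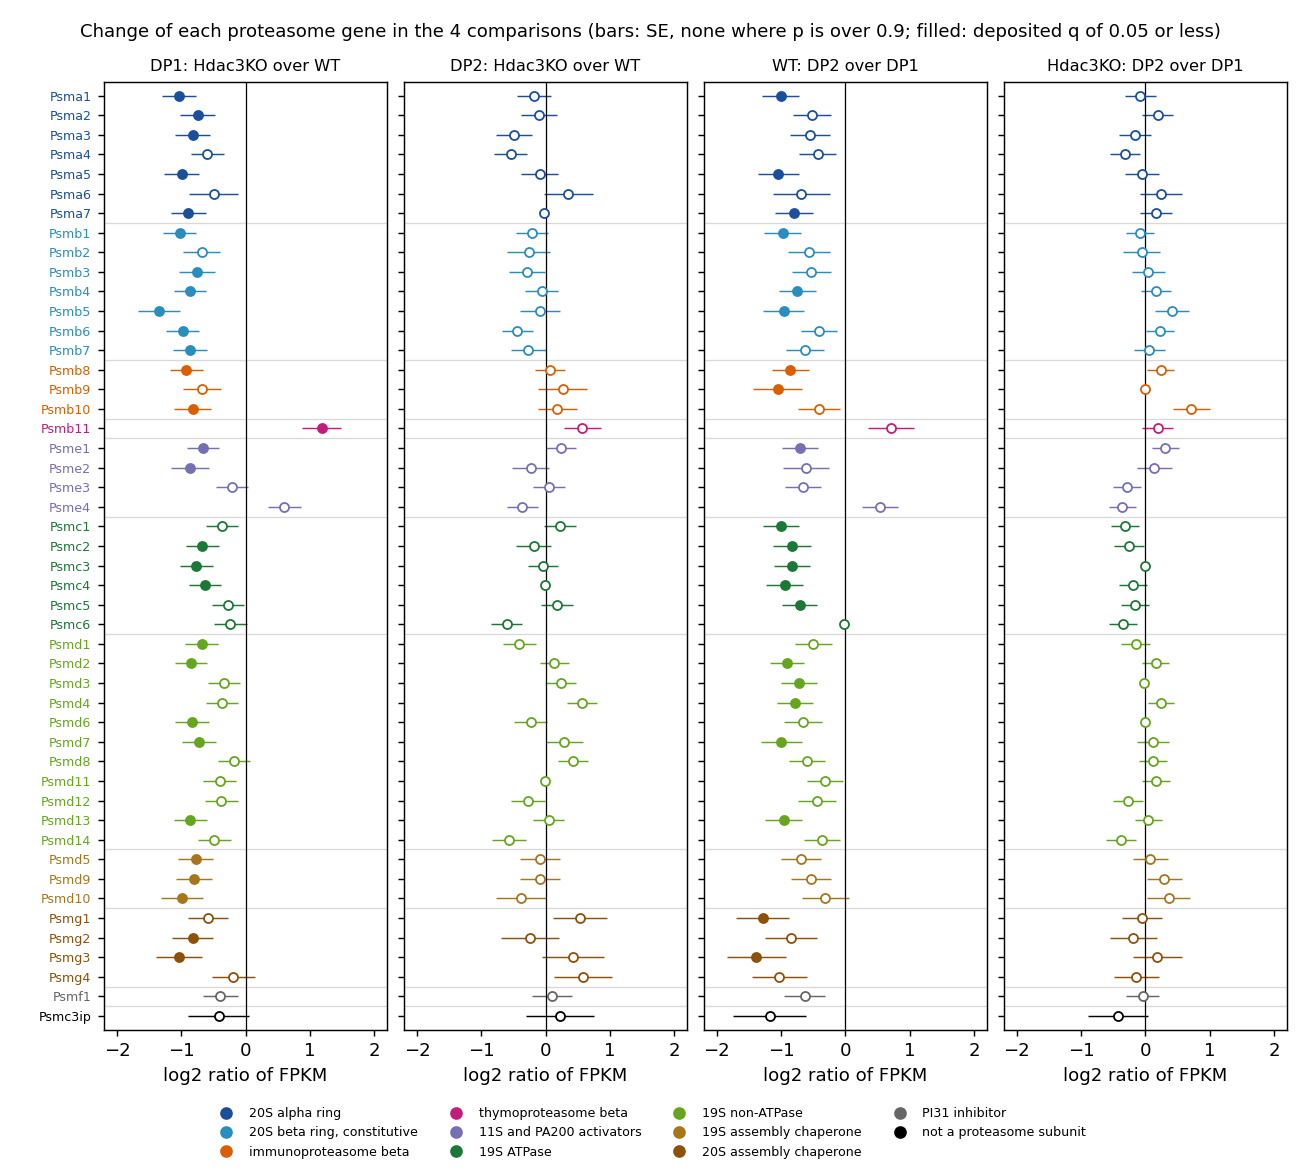
The log2 ratio of FPKM for each of the 48 genes in the 4 comparisons, with bars for the standard error worked back from the deposited p (none where that p is over 0.9, since it is then imprecise) and filled points for a deposited q of 0.05 or less. Filled points appear in the DP1 genotype panel (28 lower, 1 higher) and the WT stage panel (21 lower), and there is none in the other panels.

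By role, the WT stages called 5 of 6 ATPases of the 19S cap, 5 of its 11 other subunits, 3 of 7 alpha, 3 of 7 constitutive beta and 2 of 3 immunoproteasome subunits. The largest falls were in the core chaperones Psmg3 (17.99 to 6.89 FPKM, log2 ratio -1.38 ± 0.46, q = 0.018) and Psmg1 (25.4 to 10.4 FPKM, q = 0.0142) of the authors' deposited table. Psmb9 fell from 34.1 to 16.5 FPKM (log2 ratio -1.05 ± 0.38, q = 0.0298 by the authors' deposited table) and Psmb8 from 214 to 118 (q = 0.0173), while Psmb10 was not called (23.2 and 17.4 FPKM, q = 0.364). Psmb5 fell from 66.7 to 34.3 FPKM (q = 0.018 by the authors' deposited table), whereas Psmb6 (170 and 128 FPKM) and Psmb7 (113 and 73.2 FPKM) were not called. Psma5, Psma1, Psmc1, Psmd7, Psmb1 and Psmd13 each stood between 48.4% and 51.5% of their DP1 level and were called.

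Psmb11 was at 3.64 FPKM in WT DP1 and 5.95 in WT DP2 cells, not called in the authors' deposited table (q = 0.132), and Psme4 at 21.4 and 31.0 (q = 0.153). Psme1 fell from 275 to 168 FPKM (q = 0.0495 by the authors' deposited table), and Psme2 (55.1 and 35.9 FPKM, q = 0.21) and Psme3 (35.9 and 22.7 FPKM, q = 0.0722) were not called. The 3 chaperones of the 19S base, called between genotypes at DP1, had no call here. Markers of double-positive thymocytes moved with the stage in WT: the 9 genes summed to 6976 FPKM at DP1 and 3185 at DP2, against 6898 and 6680 in Hdac3KO. Their part in the change of the proteasome genes was not tested.

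No proteasome gene was called between the stages in Hdac3KO cells. The authors' deposited Cuffdiff table of Hdac3KO DP1 and DP2 cells called 0 of 48, with 1.78% of 10231 tested genes higher and 4.65% lower. At an unadjusted p below 0.05 there was 1, Psmb10, higher at DP2 (11.5 and 18.8 FPKM, log2 ratio 0.71 ± 0.29, q = 0.135 by the authors' deposited table). Of all 10231 tested genes, 643 were higher and 987 lower at that Cuffdiff p. The normal p of the statistic called 1 proteasome gene lower, Psmc6. The median log2 ratio was -0.00 over the proteasome genes and 0.01 over all genes. Summed levels were 2606 and 2652 FPKM, and those of all genes 511847 and 556139. Psmb5 was at 23.1 and 30.7 FPKM, Psmb8 at 99.7 and 117, Psmb9 at 18.8 and 18.7, and Psmb11 at 7.31 and 8.34. Psmb6 had 76.3 and 88.9 FPKM and Psmb7 54.7 and 57.0. Of the activators, Psme1 had 153 and 188 FPKM, Psme2 26.5 and 29.2, Psme3 27.2 and 22.4, and Psme4 28.9 and 22.6. FPKM are scaled within a table: the WT DP1 values of the WT stage table were a median of 1.13 times those of the DP1 genotype table over all genes, so sums are compared only inside a table.

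The stage by genotype difference was tested for each gene as the difference of its 2 log2 ratios over their combined standard error. Through the genotype ratios (DP2 minus DP1), 44 of 48 differences were positive with a median of 0.63, against 0.20 over all genes. The share of positive differences over all genes was not computed. No gene passed at an adjusted q of 0.05 (Cuffdiff p worked back, normal p, Benjamini-Hochberg over 10144 genes), where 0.897% of all genes were called positive and 1.18% negative. At an unadjusted p below 0.05 there were 17, of which 16 were positive. Over all genes this normal p was below 0.05 for 18.6%, and 11.8% were positive as well. With standard errors from the deposited statistic 1 gene, Psma1, passed. The lowest q was 0.0848, for Psmd2 (0.98 ± 0.34). Psme4 was the negative gene among the 17, at -0.97 ± 0.35 (q = 0.0979).

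The stage ratios (Hdac3KO minus WT) rest on the same 8 libraries and are no second support. Through them 44 differences were positive, with a median of 0.73 against 0.30 over all genes, and 1 gene passed. This was Psmb5, with a difference of 1.37 ± 0.42 on the log2 scale (q = 0.044), where 2.07% of all genes were called positive and 1.06% negative. Psmd2 (1.07 ± 0.34, q = 0.0501) and Psmb8 (1.09 ± 0.35, q = 0.0553) followed. Psmb11 had a difference of -0.52 ± 0.43 (q = 0.486). The Psmb5 call was lost with the length trend removed (0.50, q = 0.68) and with standard errors multiplied by 1.5 (q = 0.859).

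Immunoproteasome and constitutive subunits were set against each other as ratios inside a group, which do not depend on the scaling between groups. Psmb8 over Psmb5 was 3.21 in WT DP1, 4.32 in Hdac3KO DP1, 3.44 in WT DP2 and 3.82 in Hdac3KO DP2 cells. The difference of the 2 genes' log2 changes between genotypes was 0.43 ± 0.42 at DP1 and 0.15 ± 0.39 at DP2. Psmb9 over Psmb6 was 0.201, 0.246, 0.130 and 0.211 in the same order, with genotype differences of 0.29 ± 0.39 and 0.70 ± 0.45. Psmb10 over Psmb7 was 0.205, 0.211, 0.242 and 0.331, with genotype differences of 0.04 ± 0.39 and 0.45 ± 0.41. Here ± combines the standard errors of the 2 genes as if they were independent, although both genes were measured in the same libraries. It is therefore no measure of the spread of the ratio between libraries. Each of these genotype differences was smaller than 2 of these standard errors. Since the spread of a ratio between libraries is unknown, these values cannot decide whether immune subunits shifted against constitutive ones.

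Psmb11 over Psmb5 had a wider range: it was 0.0547 in WT DP1, 0.316 in Hdac3KO DP1, 0.173 in WT DP2 and 0.272 in Hdac3KO DP2 cells. The difference of log2 changes, with ± combined in the same way, was 2.53 ± 0.45 between genotypes at DP1 and 0.65 ± 0.42 at DP2. It was 1.67 ± 0.47 between the WT stages and -0.22 ± 0.36 between the Hdac3KO stages. The DP1 genotype and WT stage values share the WT DP1 libraries, where the ratio was lowest. With the length trend removed from both genes the values were 1.80 between genotypes at DP1 and 0.997 between the WT stages. Even in Hdac3KO DP1 cells Psmb11 was 7.32% of Psmb8 in FPKM.

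**Figure D4:**
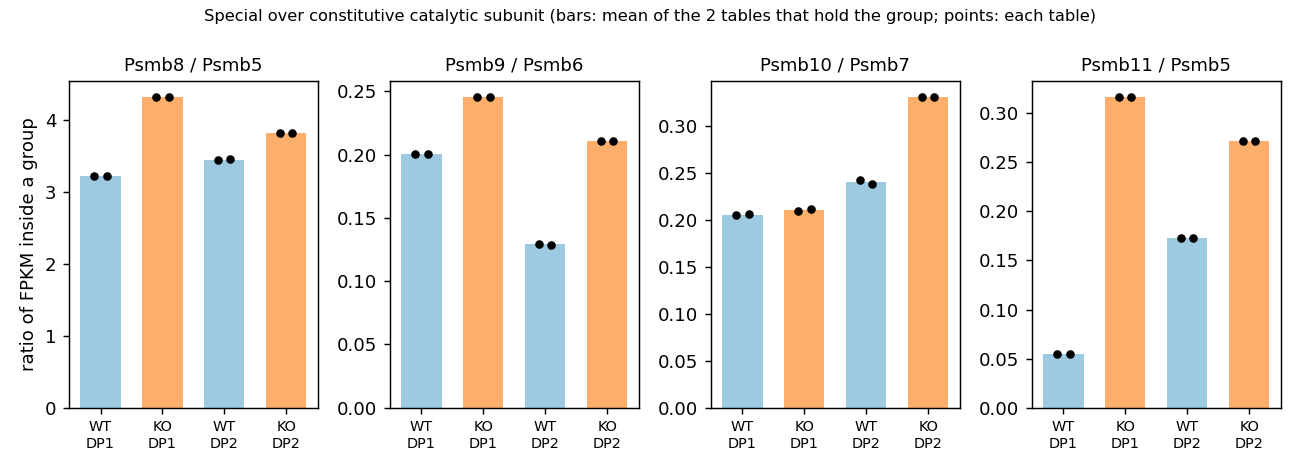
Ratio of FPKM of an immune or thymic catalytic subunit over its constitutive counterpart inside each of the 4 groups, with bars for the mean of the 2 tables that hold a group and a point for each table, from an axis that starts at 0. Psmb11 over Psmb5 is lowest in WT DP1 (0.0547) and highest in Hdac3KO DP1 (0.316), while Psmb8 over Psmb5 stays between 3.21 and 4.32.

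Genes that work with the proteasome but carry other symbols were counted from lists of related functions, whose counts are to be read against the shares of all tested genes: 10.7% higher and 12.9% lower between genotypes at DP1, 6.44% and 4.32% at DP2, 5.56% and 16.8% between the WT stages. Of 21 further subunits, chaperones and shuttles in the tables, 2 fell and 1 rose in Hdac3KO DP1 cells: Pomp, a chaperone of core assembly, fell from 153 to 95.5 FPKM (q = 0.0354), Txnl1, a thioredoxin of the 19S cap, from 42.6 to 21.1 (q = 0.00255), and Zfand5 rose from 3.96 to 7.28 (q = 0.00774) in the authors' deposited table. At DP2, 3 were higher in Hdac3KO, with Shfm1, a small subunit of the 19S lid, at 130 and 336 FPKM (q = 0.00134 by the authors' deposited table), beside the shuttles Rad23b and Ubqln1. In the WT stages 8 of the 21 fell, among them Shfm1 (365 to 125 FPKM), the deubiquitinase Uchl5 (73.0 to 30.0) and Rad23b (21.3 to 9.33). In the Hdac3KO stages 0 were called, with 1 higher and 3 lower at Cuffdiff's unadjusted p below 0.05, beside 643 and 987 of all 10231 tested genes.

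Of the ubiquitin pathway, Rps27a, which encodes ubiquitin fused to a ribosomal protein, fell in Hdac3KO DP1 cells from 1224 to 626 FPKM, and the activating enzyme Uba1 from 124 to 76.1. Of 10 transcription factors of proteasome genes and their processing enzymes, 0 were called at DP1. At Cuffdiff's unadjusted p below 0.05, 1 was higher and 1 lower, beside 1598 and 2164 of all 10511 tested genes. Nfe2l1 was at 17.96 and 16.1 FPKM (q = 0.696) and Nfe2l2 at 16.1 and 17.9 (q = 0.717), both as given by the authors' deposited table. Of 11 genes of class I peptide loading and its interferon regulators, 3 rose at DP1, where 10.7% of all tested genes were called higher: the trimming peptidase Erap1 (6.60 to 10.6 FPKM), the class I transactivator Nlrc5 (1.19 to 2.95) and Irf2 (13.8 to 23.4). The other 8 had a lower value in Hdac3KO, and 0 were called lower. Among these were the peptide transporter genes Tap1 and Tap2, neighbours of Psmb9 and Psmb8. In the authors' deposited table Tap1 had 36.5 and 24.7 FPKM (q = 0.0825) and Tap2 68.2 and 45.0 (q = 0.0628). Both fell in the WT stages, from 41.6 to 23.7 FPKM and from 77.7 to 42.5. In those stages Nlrc5 rose from 1.35 to 5.04 FPKM, and its value at DP1 is below the 5 FPKM of the naming rule and was named after it was seen. Also in the WT stages, Rps27a fell, the activating enzyme Uba6 rose from 22.8 to 46.1 FPKM and the NF-Y subunit Nfyc fell from 45.0 to 26.5. Between genotypes at DP2, Uba6 (47.0 to 28.1 FPKM) and the NF-Y subunit Nfyb (111 to 62.2) fell in Hdac3KO and the interferon regulator Irf1 rose (24.9 to 45.7). In the Hdac3KO stages Irf1 (25.3 to 41.4 FPKM) and Nlrc5 (2.94 to 5.23) rose.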

How the data were processed

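RNA-seq was made from 8 pooled thymocyte RNA samples in 4 groups of 2 libraries. Per the submitters' processing notes, reads were processed with Trimmomatic 0.32, TopHat2 2.0.11 and Cuffdiff 2.1.1 on mm10. The annotation and the strand setting are not given in the sources used here. The authors deposited, for each of 4 comparisons, 1 FPKM value per gene and group, a test score (Cuffdiff's statistic), a p-value and a q-value. Depth and values per library are unknown, so no SD is given, and nothing in the labels says that the 2 libraries of a group came from separate animals, so the spread behind p may be technical.

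Log2 ratios were computed from the deposited FPKM without a pseudocount, because the deposited log2 column had been altered by a spreadsheet. Standard errors were worked back from the deposited p as the ratio over its normal quantile, are upper bounds at the smallest p of 5e-05 and are imprecise where p is near 1. The deposited q was checked against a Benjamini-Hochberg adjustment of the deposited p and differed by at most 5.26e-07. Length trends were lowess fits (fraction 0.3, genes at 10 FPKM or more in each group) on GENCODE M21 transcript lengths, and the scripts were tested on simulated data. By rule, the named genes are the catalytic and activator subunits plus, in each comparison, the 10 called genes with the largest change each way and at least 5 FPKM, and up to 4 called genes each way from the related lists. Other genes named in the text, such as Psma6, Psmb2, Psmf1 and, at DP1, those of the 19S cap and its chaperones other than Psmd10, fall outside this rule and were chosen after their values were seen. Some genes of the related lists are not reported here. The genes and lists were chosen with earlier results of these data known. Python 3.11.15, scipy 1.17.1 and statsmodels 0.14.6 were used.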

Additional observations from a re-analysis of the deposited data

Results flagged for a closer look

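Psmb5 differed between the genotypes in its stage change: the log2 ratio of DP2 over DP1 was 1.37 ± 0.42 higher in Hdac3KO (0.41 ± 0.27) than in WT cells (-0.96 ± 0.32), with q = 0.044 over 9969 genes. The same 8 libraries read through the genotype ratios gave 1.26 ± 0.45 (q = 0.0984). The call was not kept with the length trend removed (0.50, q = 0.68), with standard errors from the deposited statistic (q = 0.299) or with standard errors multiplied by 1.5 (q = 0.859).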

How the results depend on the processing

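Counts of called proteasome genes depended on the scaling. Shares of all genes were computed for the deposited q of 0.05 and the main stage by genotype test. For the DP1 genotypes and WT stages they were also computed with the length trend removed and with centring. For the other settings of this section no such share was computed. Those counts, also where given earlier, cannot be set against all genes. At DP1, the 28 lower genes became 11 at q of 0.01, 16 with ratios centred on the median gene, 3 with the length trend removed, 12 with the GC trend removed, 3 with length and GC removed (Psma2, Psma3 and Psmd5) and 17 by the deposited statistic, of which 16 were among the 28. The 1 higher gene became 2 (Psmb11 and Psme4) at q of 0.1 and with centring, and the median moved from -0.71 to -0.27 with length removed. The 21 lower genes of the WT stages became 7 at q of 0.01, 0 with centring, 0 with length removed, 1 with GC removed (Psma1), 0 with length and GC removed and 10 by the statistic (8 shared), and the higher genes became 2 with centring, 1 with GC removed and 1 with both removed. The WT stage median went from -0.70 to -0.37 with centring and -0.16 with length removed. Between genotypes at DP2, where 0 were lower, there was 1 at q of 0.1, and there were 2 with centring, 2 with length removed, 2 with GC removed and 2 by the statistic. Of these, Psmd11 passed through a very small standard error worked back from a p near 1. Between the Hdac3KO stages the statistic gave 1. The stage by genotype test through genotype ratios gave 4 genes at q of 0.1 and 1 with standard errors from the statistic, in place of 0. Through stage ratios it gave 8 at q of 0.1, 0 with standard errors multiplied by 1.5 and 0 with length removed, in place of 1. With length and GC removed, the log2 ratios of Psmb3 (0.062) and Psme1 (0.041) at DP1 and of Psma7 (0.055), Psmb4 (0.13), Psmb5 (0.12), Psmc5 (0.10) and Psme1 (0.25) between WT stages changed sign, as did Psme1 between WT stages with length alone removed (0.036). The cause was not tested. The GC settings and the use of a median standard error where p is over 0.9, which left the stage by genotype counts at 0 and 1, were chosen after seeing the data.

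No paired analysis was possible because each deposited value stands for a whole group and no value per library was used here. Leaving out each replicate in turn was not run for the same reason. The depth of the libraries is unknown, and genotype and sex cannot be told apart.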
